A study of Mus musculus with 36 samples.

Results

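At zeitgeber time (ZT) 12, gastrocnemius muscle of mice lacking Bmal1 in the liver (Bmal1hep-/-) was compared with muscle of wild-type (WT) mice. The comparison holds 6 libraries of the 36 in the series, 3 biological replicates per genotype, and they were taken by genotype and time label alone. The whole series covers both genotypes at 6 times of day, and the question it puts is how the liver clock bears on muscle transcripts. Both groups are gastrocnemius, a calf muscle made largely of fast fibres, and the groups differ by label only in genotype. How the deletion was driven, and the age, sex and feeding of the mice, are not given in the sources used. The Bmal1 deletion is hepatic, so muscle cells keep the gene, and its muscle mRNA is no check of the deletion.

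BMAL1, the product of Arntl, pairs with CLOCK and drives transcription from E-boxes, while PER and CRY proteins repress the pair and REV-ERB and ROR receptors set the level of Arntl itself. Nearly every tissue runs this loop. The liver clock also times the supply of glucose, lipids and bile acids to the rest of the body, so its loss can in principle reach muscle through the blood. Zeitgeber time counts hours from the start of the light phase, and in an even light cycle ZT12 is the onset of darkness, when mice become active and begin to feed. In muscle, mRNAs of the positive arm of the clock are near their trough at that time and those of the period genes near their peak.

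Levels are FPKM (fragments per length of transcript and per total of the library), which are scaled for length, and differences are of log2(FPKM + 1), Bmal1hep-/- minus WT, which understates the change of genes of low level. Each difference is given ± its standard error (SE, n = 3 libraries per genotype). A mean of at least 1 FPKM over all 36 libraries was required, which left 10837 genes for limma, and limma drew its spread from all 36. Wherever 3 values are given for a genotype they stand in the order of replicates 1, 2 and 3. Relative depth, read from the FPKM worth of 1 read in low genes, was 58.4% to 80.7% of the deepest library in the series, and 10367 to 10896 genes reached 1 FPKM in each of the 6. Muscle fibre markers were abundant in all 6, as in Acta1, skeletal actin, at 31153 to 45257 FPKM, and Myh4, a main fast myosin, was listed at 0 in 34 of the 36 libraries. No value of it is read here, though it counts as 1 of the tested fast fibre genes and of the lower genes. The labels call the replicates biological, and p-values measure the spread between these libraries.

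Before any result, 2 libraries stood apart. Bmal1hep-/- replicate 2 had lower levels for longer transcripts, each level taken against the gene's mean over all 36 libraries. Its Spearman correlation of that deviation with length across genes was -0.603, against -0.080 to 0.312 in the other 5. Its FPKM summed to 830136, the highest of the 36 libraries, against 578393 in Bmal1hep-/- replicate 3. The tenth of genes with the shortest transcripts stood at a median of 0.55 above the WT mean there, and at 0.13 and -0.035 in replicates 1 and 3 (log2). The tenth with the longest stood at -0.40 there, and at -0.080 and 0.037 in the others. WT replicate 1 held the highest sum of Schwann cell markers of the 36 libraries, at 656 FPKM, against 61.4 to 137 FPKM in the other 5. Results are therefore given with and, where it matters, without these libraries, and a value without replicate 2 leaves out that of Bmal1hep-/- muscle.

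**Figure D1:**
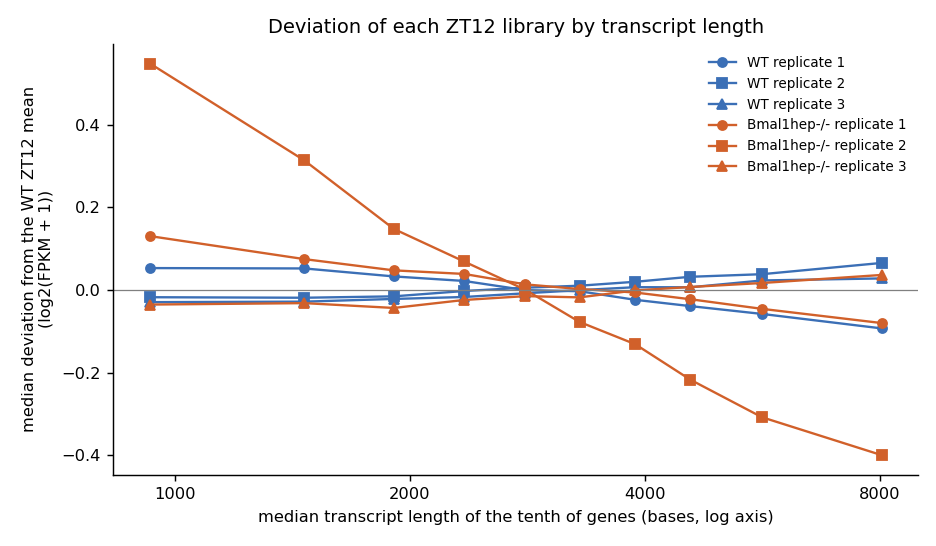
Median deviation of log2(FPKM + 1) from the WT ZT12 mean (vertical axis) for 10 equal groups of genes ordered by transcript length in bases (horizontal log axis), 1 line per library, blue for WT and orange for Bmal1hep-/-. Bmal1hep-/- replicate 2 runs from 0.55 for the shortest transcripts to -0.40 for the longest, while the other 5 libraries stay between -0.093 and 0.13.

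No transcript differed between the genotypes at ZT12 beyond the replicate error once all genes were taken into account. limma called 0 of 10837 genes (0.0%) at an adjusted p under 0.05, and the smallest adjusted p was 0.686. At an unadjusted p under 0.05 there were 786 genes (7.25%), of which 477 (4.4%) were higher and 309 (2.85%) lower in Bmal1hep-/- muscle. The libraries of the genotypes did not overlap for 476 higher genes (4.39%) and for 478 lower genes (4.41%). The median difference over all tested genes was -0.015, and 5068 (46.8%) lay above 0. The 95% interval of a gene reached a median of 0.30 to either side, or 1.23-fold of FPKM + 1, with quartiles of 0.24 and 0.38. For 10321 genes (95.2%) that interval excluded a difference of 1 in both directions, and for 6760 (62.4%) it lay within 0.5. A difference of 1 is 2-fold of FPKM + 1, and at low levels a 2-fold change of FPKM falls short of it. Without Bmal1hep-/- replicate 2 the count at an unadjusted p under 0.05 was 260 (2.4%), 173 of them among the 786, and 0 passed. Without Bmal1hep-/- replicate 3 it was 2025, with 0 passed and a smallest adjusted p of 0.053. Without WT replicate 3 it was 515, with 0 passed. Fits that weight each library by its own spread called 2068 genes by REML, which did not converge, and 28 gene by gene. Both gave Bmal1hep-/- replicate 1 most of the weight of its group. The genes below are therefore given as values and estimates, none of which passed the test.

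No gene of the muscle clock differed between the genotypes beyond its replicate error. Of the 23 clock genes listed, 21 were tested, and Npas2, a relative of Clock, and Rorb lay under the filter. All 21 intervals held 0, the groups overlapped in every one of the 21, and the median difference was -0.014. For 18 genes the difference was under 0.25 in size, and 0 of the 21 had an unadjusted p under 0.05 in limma. Over all tested genes 7.25% had such a p and 8.80% had groups that did not overlap. Counts of 0 among 21 lie near those shares. The BMAL1 pair acts through E-boxes, so the promoter windows of Ciart, whose product CHRONO represses that pair, and of Per1 are shown, the first for its 3 E-boxes and the second for its single one. Both run 5′ to 3′ from 250 bases before the start to 50 after it, from RefSeq on GRCm38.p6, with the E-box CACGTG in capitals. Ciart lies at chr3:95882179-95882478 on the minus strand and its E-boxes start 116, 58 and 44 bases before the start. Per1 lies at chr11:69098699-69098998 on the plus strand and its E-box starts 166 bases before it.
Ciart: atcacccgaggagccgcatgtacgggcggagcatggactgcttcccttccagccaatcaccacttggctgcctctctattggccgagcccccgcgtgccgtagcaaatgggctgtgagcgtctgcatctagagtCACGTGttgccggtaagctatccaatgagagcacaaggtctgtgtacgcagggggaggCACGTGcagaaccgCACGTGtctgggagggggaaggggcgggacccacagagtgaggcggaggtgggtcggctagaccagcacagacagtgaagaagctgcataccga
Per1: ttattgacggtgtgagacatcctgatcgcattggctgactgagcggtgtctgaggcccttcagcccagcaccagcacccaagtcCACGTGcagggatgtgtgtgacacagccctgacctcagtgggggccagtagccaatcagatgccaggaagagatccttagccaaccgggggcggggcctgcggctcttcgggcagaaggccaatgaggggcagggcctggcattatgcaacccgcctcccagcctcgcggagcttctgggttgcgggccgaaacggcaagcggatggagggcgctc
CACGTG, which reads the same on both strands, was present in 2349 of 32851 such windows (7.15%) and in 5 of the 16 clock genes with a window, namely Per1, Cry1, Ciart, Bhlhe41 and Tef. A match describes these letters and not the binding of a factor.

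Among the activators, Arntl stood at 2.10, 2.24 and 1.81 FPKM in WT and 2.30, 1.68 and 1.63 FPKM in Bmal1hep-/- muscle, its lowest of the 6 times in both genotypes. The values of the genotypes overlapped, and the difference was -0.093 ± 0.16, with an interval of -0.43 to 0.24. Clock, its partner, stood at 2.61, 3.56 and 3.14 FPKM in WT and 3.15, 2.06 and 3.34 FPKM in Bmal1hep-/- muscle and overlapped as well, with a difference of -0.10 ± 0.17. The receptor gene Rora, an activator of Arntl, stood at 13, 19.9 and 17.5 FPKM in WT and 17.3, 10.5 and 17.5 FPKM in Bmal1hep-/- muscle, and its lowest library was Bmal1hep-/- replicate 2. Its difference was -0.16 ± 0.21, and 0.065 without that library.

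Among the repressors, Ciart stood at 6.39, 7.07 and 6.87 FPKM in WT and 8.39, 11.4 and 6.75 FPKM in Bmal1hep-/- muscle. Its high value came from Bmal1hep-/- replicate 2, and the difference was 0.32 ± 0.22 with all libraries and 0.13 without that one. Per1 stood at 19.5, 22.4 and 18.7 FPKM in WT and 22, 24.7 and 22.8 FPKM in Bmal1hep-/- muscle, its highest of the 6 times in both genotypes, and the groups overlapped at the WT library of 22.4 FPKM (difference 0.19 ± 0.20). Per2 stood at 7.04, 6.43 and 7.85 FPKM in WT and 7.34, 7.06 and 6.78 FPKM in Bmal1hep-/- muscle, also its highest time in both, with a difference of -0.0055 ± 0.18. Per3, the remaining period gene, differed by -0.049 ± 0.14. For the cryptochromes the difference was -0.14 ± 0.12 in Cry1 and 0.11 ± 0.11 in Cry2. Nr1d1, which encodes REV-ERBα, stood at 42.1, 43.4 and 45.2 FPKM in WT and 51.4, 41.1 and 38.7 FPKM in Bmal1hep-/- muscle, where the Bmal1hep-/- libraries lay on both sides of all WT libraries (difference -0.0056 ± 0.17). Its relative Nr1d2 differed by -0.14 ± 0.15, and the repressors Bhlhe40 and Bhlhe41 by 0.070 ± 0.16 and -0.014 ± 0.13. Of the genes that act on PER proteins, the kinases Csnk1d and Csnk1e differed by 0.075 ± 0.065 and -0.12 ± 0.079.

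Dbp, an output factor driven by E-boxes, stood at 65.8, 70.4 and 66.9 FPKM in WT and 82.4, 127 and 60.7 FPKM in Bmal1hep-/- muscle. Bmal1hep-/- muscle held both the highest and the lowest of the 6 values, and the difference was 0.34 ± 0.28, or 0.063 without replicate 2. The related factors Tef and Hlf differed by -0.078 ± 0.095 and -0.20 ± 0.19, and the repressor of the same sites, Nfil3, by 0.17 ± 0.17. A list of outputs shared by clocks of different tissues had 12 of 14 members tested and a median difference of 0.014. The list had 0 at an unadjusted p under 0.05, against 7.25% of all tested genes. Its members of smallest p were the tetraspanin Tspan4 (0.24 ± 0.14), the monooxygenase Fmo2 (-0.34 ± 0.22), Leo1 of the PAF1 complex (0.13 ± 0.094) and Coq10b of coenzyme Q function (-0.24 ± 0.19). The difference at ZT12 was also set against the mean difference at the other 5 times. In that limma test 0 of the 21 clock genes had an unadjusted p under 0.05, against 8.58% of all tested genes.

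**Figure D2:**
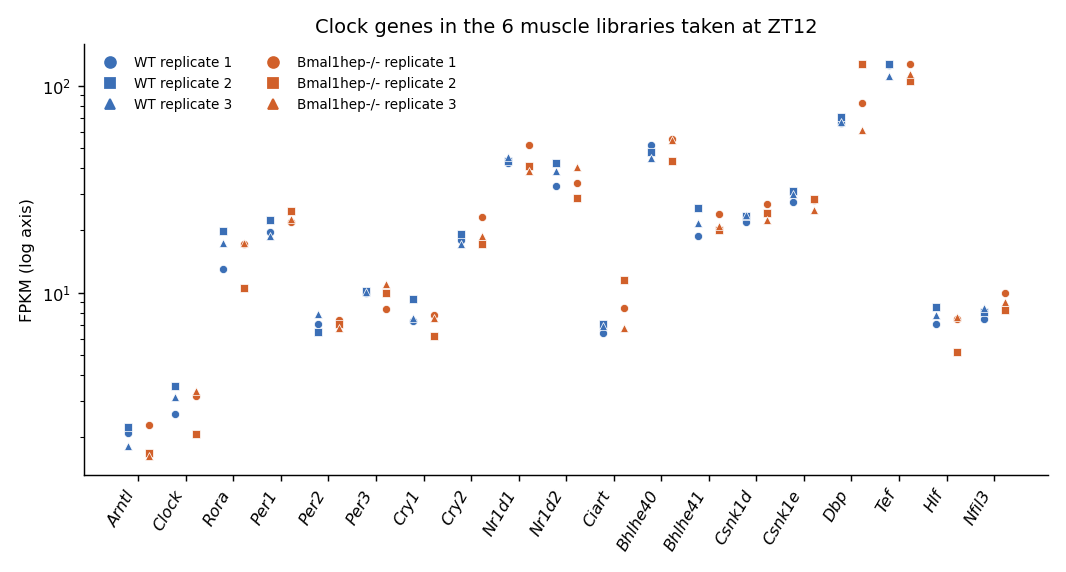
FPKM (vertical log axis) of 19 of the 21 tested clock genes in each of the 6 libraries, blue for WT and orange for Bmal1hep-/-, with circles, squares and triangles for replicates 1, 2 and 3. The groups overlap for every gene shown, from Arntl near 2 FPKM to Tef above 100 FPKM, and the Bmal1hep-/- square lies highest for Dbp and Ciart.

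The 20 genes of smallest p were mostly higher in Bmal1hep-/- muscle, 18 of 20, and 19 of the 20 had groups that did not overlap. Over all tested genes 46.8% lay above 0 and 8.80% had groups that did not overlap. A choice by small p on these values favours groups that do not overlap. All 20 had an adjusted p of 0.686 in limma. Their median transcript length was 1404 bases against 3046 for all tested genes, and Bmal1hep-/- replicate 2 was the library farthest from the WT mean in 15 of the 20, against 62.9% of all genes. All 20 kept their sign and an unadjusted p under 0.05 without that library, and 2 were larger without it, and they were chosen for a small p on these same values. Tmem141, a small membrane protein gene, stood at 8.43, 7.30 and 8.53 FPKM in WT and 17.2, 13.9 and 11 FPKM in Bmal1hep-/- muscle. Every Bmal1hep-/- library lay above every WT library, and its highest was replicate 1 (difference 0.71 ± 0.16, 0.70 without replicate 2). Ogg1, the glycosylase that removes oxidised guanine from nuclear and mitochondrial DNA, stood at 3.05, 3.06 and 3.87 FPKM in WT and 6.34, 5.61 and 5.23 FPKM in Bmal1hep-/- muscle, again without overlap and with replicate 1 highest. Its difference was 0.64 ± 0.16, and 0.65 without replicate 2.

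Rita1, whose product binds the Notch effector RBPJ, stood at 1.68, 1.48 and 2.03 FPKM in WT and 3.81, 4.97 and 3.11 FPKM in Bmal1hep-/- muscle. WT muscle at ZT12 held its lowest mean of the 6 times and Bmal1hep-/- muscle its highest, and the difference was 0.85 ± 0.21. Gar1, a protein of the particles that place pseudouridine in ribosomal RNA, stood at 2.59, 2.55 and 2.94 FPKM in WT and 5.94, 7.28 and 6.05 FPKM in Bmal1hep-/- muscle and every Bmal1hep-/- library stood well above WT. Its difference was 1.00 ± 0.28, or 0.92 without replicate 2. Gpx8, a peroxidase of the endoplasmic reticulum, stood at 1.69, 2.2 and 2.23 FPKM in WT and 3.42, 5.15 and 3.61 FPKM in Bmal1hep-/- muscle (0.72 ± 0.19), and Inca1, an inhibitor of cyclin-dependent kinase, at 1.76, 1.99 and 1.94 FPKM in WT and 3.33, 4.47 and 3.02 FPKM in Bmal1hep-/- muscle (0.66 ± 0.17). Trp53i11, a target of p53, differed by 0.71 ± 0.19.

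Several of the 20 encode parts of large complexes. Ndufb4, an accessory subunit of respiratory complex I, stood at 609.6, 598 and 522 FPKM in WT and 816, 1186 and 736 FPKM in Bmal1hep-/- muscle. All Bmal1hep-/- libraries were higher, with replicate 2 the highest, and the difference was 0.63 ± 0.16, and 0.43 without that library. Ribosomal Rpl36al stood at 234, 264 and 247 FPKM in WT and 397, 532 and 277 FPKM in Bmal1hep-/- muscle, where replicate 3 lay next to the WT libraries (0.65 ± 0.17). Rpl36a and Rpl12 differed by 0.70 ± 0.18 and 0.60 ± 0.17, and the mitochondrial ribosomal gene Mrpl51 by 0.47 ± 0.13. The cargo receptor Tmed3 differed by 0.43 ± 0.12, the spliceosomal isomerase Ppil1 by 0.44 ± 0.13, Atxn7l2 by 0.41 ± 0.11, Smim11 by 0.56 ± 0.14 and BC025920 by 0.50 ± 0.13. Tm2d3 was the gene of the 20 whose groups overlapped, through WT replicate 1 at 12.9 FPKM (0.67 ± 0.19).

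On the lower side of the 20 were Dcbld1 and Fnip2. Dcbld1, a membrane receptor gene, stood at 1.27, 1.13 and 1.38 FPKM in WT and 0.526, 0.821 and 0.683 FPKM in Bmal1hep-/- muscle, all lower than WT, and its difference was -0.43 ± 0.12 (-0.49 without replicate 2). Fnip2, a partner of folliculin in sensing energy and amino acids, stood at 1.38, 1.63 and 1.42 FPKM in WT and 0.859, 0.882 and 1.02 FPKM in Bmal1hep-/- muscle, also without overlap (-0.37 ± 0.11). For both, ZT12 was the highest of the 6 times in WT and the lowest in Bmal1hep-/- muscle. Both lie near 1 FPKM, where the log2(FPKM + 1) scale shrinks differences.

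**Figure D3:**
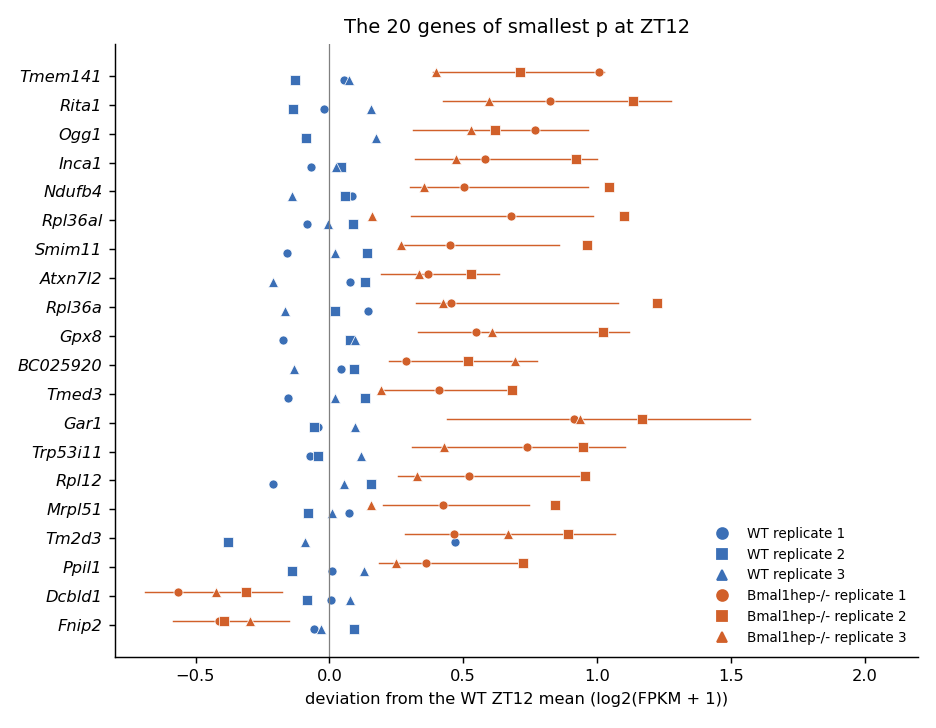
Deviation of log2(FPKM + 1) from the WT ZT12 mean (horizontal axis) for the 20 genes of smallest p, 1 point per library, blue for WT and orange for Bmal1hep-/-, with the 95% interval of the difference as an orange line. All orange points lie on 1 side of the blue ones except for Tm2d3, where WT replicate 1 lies among them, and the orange square of replicate 2 is the farthest in 15 of 20 genes.

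Genes of the respiratory chain were higher in Bmal1hep-/- muscle on average, and the shift was small once replicate 2 was left out. No member passed the test. Nuclear genes of complex I, which passes electrons from NADH to ubiquinone, had a median difference of 0.33, with 35 of 37 tested members above 0. At an unadjusted p under 0.05 there were 8 higher and 0 lower, against 4.4% and 2.85% of all tested genes. Over the list, the Bmal1hep-/- libraries stood at medians of 0.16, 0.89 and -0.014 from the WT mean, so replicates 1 and 2 were high and replicate 3 level with WT. Without replicate 2 the median was 0.034, with 21 of 37 above 0, and with a trend in transcript length removed it was 0.085. The list's median transcript length was 971 bases. Beside Ndufb4, the members of smallest p were Ndufs5 (0.78 ± 0.24, 0.49 without replicate 2), Ndufa4, now assigned to complex IV (0.46 ± 0.16, 0.25), and Ndufb3 (0.64 ± 0.23, 0.39). Ndufs5 stood at 179.6, 342 and 320.1 FPKM in WT and 413, 700.4 and 349 FPKM in Bmal1hep-/- muscle, and its lowest Bmal1hep-/- value was just above the highest WT value.

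Complex IV, which passes electrons to oxygen, had 16 of 16 members above 0, against 46.8% of all tested genes. It had 3 higher and 0 lower at an unadjusted p under 0.05, against 4.4% and 2.85% of all tested genes. The median was 0.38, or 0.083 without replicate 2 and 0.11 with the length trend removed. Cox7a1, its muscle isoform of subunit 7a, stood at 1239.6, 1580.3 and 1443 FPKM in WT and 2154, 3817 and 1663 FPKM in Bmal1hep-/- muscle. The groups did not overlap, but replicate 2 stood far above the rest and replicate 3 close to WT (0.76 ± 0.31, 0.42 without replicate 2). Cox6c, Cox5b and Cox6a1 differed by 0.46 ± 0.17, 0.62 ± 0.28 and 0.39 ± 0.22. Complexes II and III had a median of 0.16 (0.027 without replicate 2), with 12 of 13 above 0, and Uqcrq, Uqcrb, Uqcr10 and Uqcr11 at 0.57, 0.34, 0.44 and 0.68. Uqcr11 stood at 532, 512 and 450.3 FPKM in WT and 761, 1512 and 438 FPKM in Bmal1hep-/- muscle, so replicate 3 lay below all of WT and replicate 2 far above it.

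ATP synthase genes had a median of 0.21, with 16 of 17 above 0, and 0.032 without replicate 2. Of its members, Usmg5 stood at 924, 962 and 968 FPKM in WT and 1329, 1722 and 1098 FPKM in Bmal1hep-/- muscle without overlap (0.51 ± 0.16, 0.34 without replicate 2), and Atp5l, Atp5j2 and Atp5o differed by 0.48 ± 0.19, 0.33 ± 0.19 and 0.28 ± 0.16. The account is of nuclear subunits alone, and mitochondrially encoded mRNAs were not analysed here. Of regulators of mitochondrial biogenesis, 3 of 18 lay above 0, with a median of -0.11 (-0.058 without replicate 2). Tfb1m, the methylase of mitochondrial ribosomal RNA, stood at 5.54, 6.61 and 6.03 FPKM in WT and 5.15, 4.88 and 3.03 FPKM in Bmal1hep-/- muscle, lower in every library (-0.42 ± 0.16, -0.50 without replicate 2). The coactivators Ppargc1a and Ppargc1b, which drive mitochondrial genes, differed by -0.29 ± 0.20 and 0.21 ± 0.18, and the receptor Esrrb by -0.31 ± 0.18. Genes of mitochondrial dynamics had a median of -0.017 (-0.012 without replicate 2), with prohibitin Phb2 at 0.35 ± 0.13, the cristae protein Chchd3 at 0.25 ± 0.12, the fusion protein Opa1 at -0.29 ± 0.16 and the fission adaptor Fis1 at 0.25 ± 0.16.

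Ribosomal protein genes were also mostly higher, and again most of all in replicate 2. Of 82 genes of the cytosolic ribosome, 80 lay above 0, 38 were higher at an unadjusted p under 0.05, and 20 were higher without overlap. Over all tested genes the shares were 46.8%, 4.4% and 4.39%. The list's median was 0.35. Bmal1hep-/- libraries stood at medians of 0.28, 0.80 and 0.0097 from the WT mean over the list, so replicate 3 did not share the shift of replicates 1 and 2. Without replicate 2 the median was 0.14 with 68 of 82 above 0, and 4 genes had an unadjusted p under 0.05, and with the length trend removed the median was 0.16. Rps26 stood at 923, 887 and 878 FPKM in WT and 1200.2, 1678 and 1099 FPKM in Bmal1hep-/- muscle, all above WT (0.54 ± 0.16, 0.36 without replicate 2). Many ribosomal protein genes have processed pseudogenes of near-identical sequence, so reads could be split among copies and single values are uncertain. The mitochondrial ribosome had 63 of 76 above 0, 16 higher and 1 lower at an unadjusted p under 0.05, and a median of 0.21 (0.048 without replicate 2), with Mrpl34, Mrpl48 and Mrpl52 at 0.55 ± 0.17, 0.46 ± 0.14 and 0.66 ± 0.21.

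The proteasome, which degrades tagged proteins, had 26 of 32 members above 0, against 46.8% of all tested genes. It had 7 higher and 0 lower at an unadjusted p under 0.05, against 4.4% and 2.85% of all tested genes. Its median was 0.17, or 0.064 without replicate 2. Psmd4, its ubiquitin receptor, stood at 130.1, 130.1 and 126 FPKM in WT and 162, 193 and 130.4 FPKM in Bmal1hep-/- muscle, where replicate 3 lay level with the highest WT library (0.31 ± 0.12). Psma7, Psmb2 and Psmc5 differed by 0.33 ± 0.13, 0.24 ± 0.10 and 0.23 ± 0.11. Genes of translation initiation had a median of 0.0048 (0.010 without replicate 2) and 0 at an unadjusted p under 0.05, with Eef1a2, the muscle elongation factor, at 0.28 ± 0.14, the restraint on cap binding Eif4ebp1 at 0.34 ± 0.17, Eif3b at 0.15 ± 0.088 and Eif5a at 0.19 ± 0.12. Autophagy genes had a median of 0.013 (-0.013 without replicate 2) and likewise 0 at an unadjusted p under 0.05 (Sqstm1 0.22 ± 0.12, Gabarap 0.23 ± 0.12, Ctsd 0.14 ± 0.087, Tfeb 0.22 ± 0.15).

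**Figure D4:**
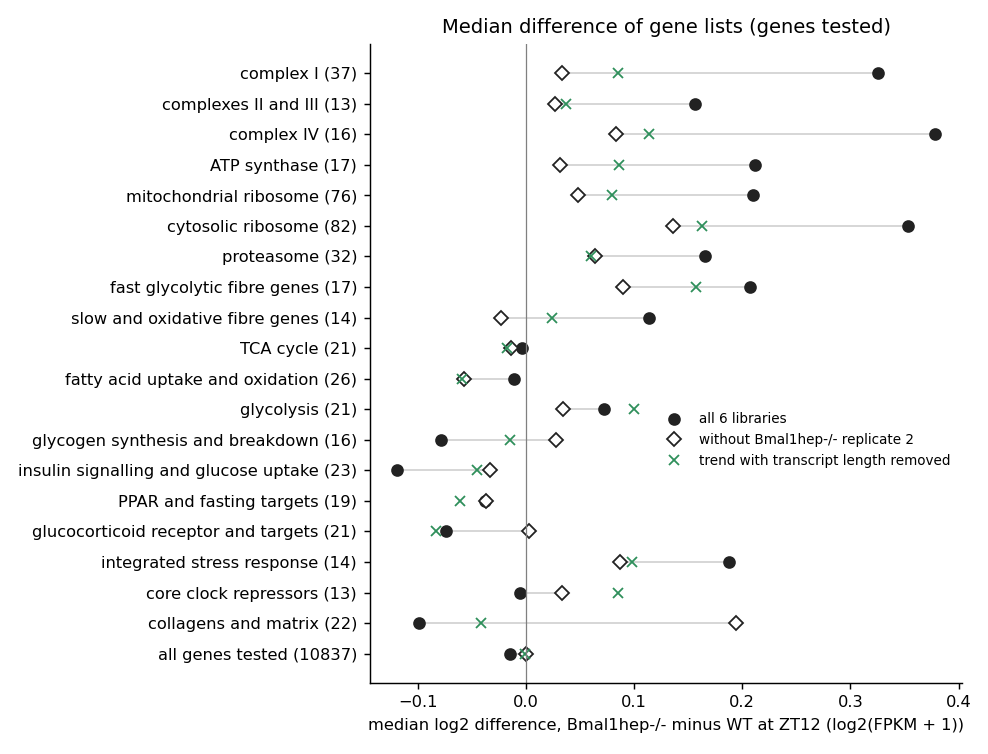
Median log2 difference, Bmal1hep-/- minus WT at ZT12 (horizontal axis), of 19 gene lists and of all genes tested, with the number tested in parentheses; filled circles use all 6 libraries, open diamonds leave out Bmal1hep-/- replicate 2 and crosses remove the trend with transcript length. The circles of the respiratory complexes and ribosomes lie at 0.16 to 0.38, and their diamonds at 0.027 to 0.14.

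Genes of fuel use had list medians of either sign. The lists leaned both ways without replicate 2, with 15 of 21 glycolysis genes and 3 of 13 pyruvate dehydrogenase genes above 0. Of all 10837 tested genes, 5410 lay above 0 without that library. Fatty acid uptake and oxidation had 26 members with a median of -0.011 (-0.058 without replicate 2). Of the 26, 11 lay above 0 (5 without replicate 2), against 46.8% of all tested genes with all libraries. At an unadjusted p under 0.05 in limma there was 1, against 7.25% of all tested genes. That one was Fabp3, the fatty acid carrier of muscle cytosol, at 448, 481 and 426 FPKM in WT and 528, 1119.7 and 539.6 FPKM in Bmal1hep-/- muscle. All of its Bmal1hep-/- libraries were above WT, and replicate 2 stood far above the others (0.60 ± 0.25, 0.24 without it). Cpt2, the inner membrane palmitoyltransferase, stood at 40.5, 40.5 and 41.5 FPKM in WT and 32.4, 33.5 and 39.2 FPKM in Bmal1hep-/- muscle, all lower (-0.22 ± 0.11, -0.19 without replicate 2). The fatty acid transporter Cd36 and the isomerase Eci1 differed by -0.35 ± 0.20 and 0.23 ± 0.15. PPAR and fasting targets had a median of -0.037, and of -0.037 without replicate 2. Pdk4, the kinase that shuts pyruvate dehydrogenase in fasting, stood at 154, 94.1 and 167 FPKM in WT and 75, 97.9 and 101 FPKM in Bmal1hep-/- muscle. Only WT replicate 2 fell within the Bmal1hep-/- range, and the difference was -0.56 ± 0.37 with an interval of -1.33 to 0.20 and a mean of -0.45 over the other 5 times. Ppara, the fasting receptor, stood at 3.30, 3.25 and 3.28 FPKM in WT and 2.71, 1.94 and 2.89 FPKM in Bmal1hep-/- muscle, all lower (-0.29 ± 0.18).

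The TCA cycle had 10 of 21 members above 0 and a median of -0.0035 (-0.014 without replicate 2). Its malate dehydrogenase gene Mdh1 stood at 307, 292 and 261 FPKM in WT and 216, 254 and 242 FPKM in Bmal1hep-/- muscle, all lower (-0.27 ± 0.12, -0.32 without replicate 2). Suclg1 of succinyl-CoA ligase stood on the other side without overlap (0.23 ± 0.10), and Sdhd and Dld differed by 0.21 ± 0.15 and -0.21 ± 0.15. Glycolysis had a median of 0.072 (0.034 without replicate 2), with Pgam2 at 0.41 ± 0.18 (0.18 without replicate 2) and aldolase Aldoa at 0.28 ± 0.15. Of the isoforms of the enzyme that sets fructose 2,6-bisphosphate, the list members of smallest p were Pfkfb1 at 43.1, 40.0 and 41.3 FPKM in WT and 30.9, 36.5 and 36.9 FPKM in Bmal1hep-/- muscle without overlap (-0.25 ± 0.13) and Pfkfb2 at -0.24 ± 0.11. In glycogen metabolism, median -0.078 (0.027 without replicate 2), the branching enzyme Gbe1 stood at 24.7, 25.1 and 22.8 FPKM in WT and 19.4, 14.7 and 21.6 FPKM in Bmal1hep-/- muscle, lower in all 3 libraries (-0.38 ± 0.16, -0.23 without replicate 2). Ugp2, Ppp1r3a and Stbd1 differed by -0.22 ± 0.15, -0.32 ± 0.23 and 0.23 ± 0.16.

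Insulin signalling and glucose uptake had 4 of 23 members above 0 and a median of -0.12. Without replicate 2 it had 7 above 0 and a median of -0.033. These genes are long, with a median transcript of 4330 bases. The glucose transporter Slc2a1 stood at 10.7, 6.39 and 5.45 FPKM in WT and 4.87, 4.4 and 6.31 FPKM in Bmal1hep-/- muscle, with WT replicate 1 the highest. Slc2a1 is also known from the nerve sheath, and Schwann cell markers were highest in that library, but their part in the value was not tested. The difference was -0.42 ± 0.16, or -0.17 without it. Irs2, an adaptor of the insulin receptor, stood at 4.2, 6.44 and 6.54 FPKM in WT and 3.21, 2.75 and 6.44 FPKM in Bmal1hep-/- muscle, where replicate 3 lay at the WT level and the others below (-0.44 ± 0.21). Tbc1d15 and Pik3ca differed by -0.25 ± 0.13 and -0.20 ± 0.12. In the pyruvate dehydrogenase list, median -0.10 (-0.049 without replicate 2), Pdpr stood at 33.3, 41.3 and 37.3 FPKM in WT and 33.3, 10.1 and 35.5 FPKM in Bmal1hep-/- muscle, so its difference of -0.67 ± 0.35 rested on replicate 2 and was -0.11 without it. The pyruvate carrier Mpc1 differed by 0.19 ± 0.14.

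Lipid synthesis genes had a median of 0.011 (0.051 without replicate 2). Gpam, the first enzyme of triglyceride assembly, stood at 54.0, 59.8 and 60.8 FPKM in WT and 48.9, 22.7 and 55.8 FPKM in Bmal1hep-/- muscle and was far lower in replicate 2 than in any other library (-0.54 ± 0.25, -0.15 without it). Lpin1, Mlxip and Thrsp differed by -0.18 ± 0.13, -0.16 ± 0.13 and 0.33 ± 0.29. Cholesterol synthesis genes had a median of -0.034 (0.032 without replicate 2) and 0 at an unadjusted p under 0.05, with the enzyme genes Mvd, Pmvk and Hmgcs1 at 0.22 ± 0.17, 0.28 ± 0.22 and -0.17 ± 0.14. Lipid droplet genes had a median of 0.064 (0.14 without replicate 2), with 0 at an unadjusted p under 0.05. Over all tested genes 7.25% had such a p in limma. Counts of 0 among 22 cholesterol and 11 lipid droplet genes tested lie near that share. Mgll, the monoglyceride lipase, differed by 0.22 ± 0.14 and the lipase inhibitor G0s2 by 0.35 ± 0.41, while the droplet proteins of fat cells Plin1 (0.72 ± 0.81) and Cidec (0.50 ± 0.78) were highest in Bmal1hep-/- replicate 3 and next in WT replicate 1.

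Hormone and stress lists had medians of either sign, none with a member past the test. Glucocorticoid receptor targets had a median of -0.074 (0.0026 without replicate 2), with the receptor Nr3c1 at -0.19 ± 0.17 and Klf9 at -0.17 ± 0.15. Foxo1, the transcription factor of fasting and atrophy, stood at 7.03, 6.07 and 7.36 FPKM in WT and 5.53, 4.28 and 6.18 FPKM in Bmal1hep-/- muscle with an overlap of 1 library (-0.31 ± 0.13, -0.19 without replicate 2). Atrophy ligases and FOXO targets had a median of -0.037 (0.010 without replicate 2), with the ubiquitin ligase genes Fbxo31 and Ube4a at 0.21 ± 0.096 and -0.23 ± 0.15. The integrated stress response, median 0.19 (0.087 without replicate 2), held Ddit3, the factor CHOP, at 11.1, 14.5 and 13.3 FPKM in WT and 18.6, 23.4 and 14.9 FPKM in Bmal1hep-/- muscle, without overlap and with replicate 3 just above WT (0.50 ± 0.23, 0.35 without replicate 2). Shmt2, Sesn2 and Vldlr differed by 0.23 ± 0.10, -0.26 ± 0.13 and -0.32 ± 0.20. Cytosolic chaperones had a median of 0.092 (0.051 without replicate 2), with HSP90 cochaperones Ahsa1, Stip1 and Fkbp4 at 0.26 ± 0.11, 0.22 ± 0.097 and 0.27 ± 0.13 and Hsp90aa1 itself at -0.29 ± 0.15. Genes of the unfolded protein response had a median of -0.052 (-0.019 without replicate 2), with Calr and Pdia6 at 0.18 ± 0.083 and 0.20 ± 0.096 and Dnajb9 and the sensor Ern1, both without overlap, at -0.34 ± 0.17 and -0.35 ± 0.19.

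NAD and antioxidant genes had differences in both directions. Sirt1, the nuclear NAD-dependent deacetylase, stood at 3.91, 3.77 and 4.4 FPKM in WT and 2.69, 2.83 and 3.46 FPKM in Bmal1hep-/- muscle, all lower than WT (-0.34 ± 0.13, -0.31 without replicate 2). Nampt, which makes the NAD precursor and is a known clock output, differed by -0.22 ± 0.13, and Sirt5 and Sirt2 by 0.26 ± 0.15 and 0.17 ± 0.11. Among NRF2 targets, median -0.047 (-0.067 without replicate 2), Gclm of glutathione synthesis differed by -0.28 ± 0.12, Txnrd1 by -0.18 ± 0.086, Sod1 by 0.46 ± 0.20 and Txn1 by 0.23 ± 0.12. Kruppel-like factors had 2 of 13 above 0 and a median of -0.13 (-0.090 without replicate 2), with Klf11, Klf13, Klf12 and Klf5 at -0.41 ± 0.22, 0.18 ± 0.11, -0.29 ± 0.19 and -0.26 ± 0.19. Immediate early genes had a median of 0.023 (-0.086 without replicate 2), with Ier2 at 4.69, 6.49 and 5.52 FPKM in WT and 5.15, 12.2 and 9.36 FPKM in Bmal1hep-/- muscle (0.53 ± 0.25), and Zfp36, Ier3 and Fosl2 at 0.42 ± 0.25, -0.27 ± 0.17 and -0.16 ± 0.12. Branched-chain amino acid catabolism had a median of -0.078 (-0.076 without replicate 2), and Ivd, its isovaleryl-CoA dehydrogenase, stood at 83.2, 79.7 and 75.4 FPKM in WT and 71.2, 71.5 and 63.3 FPKM in Bmal1hep-/- muscle, all lower (-0.21 ± 0.090). Interferon genes had a median of 0.058 (-0.031 without replicate 2), with Ifit1 near 1 FPKM and lower in every library (-0.35 ± 0.15).

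Contractile genes of fast fibres were mostly higher and those of slow fibres varied within each genotype. Fast fibre genes, Myh4 included as 1 of those below 0, had 15 of 17 members above 0, against 46.8% of all tested genes. At an unadjusted p under 0.05, 3 were higher and 0 lower, against 4.4% and 2.85% of all tested genes. The list's median was 0.21 (0.090 without replicate 2). Tnnc2, fast troponin C, stood at 14355, 12597 and 11945 FPKM in WT and 19650.4, 28403 and 14696 FPKM in Bmal1hep-/- muscle. The groups did not overlap, and the difference was 0.64 ± 0.21, or 0.39 without replicate 2. Its partners Tnnt3 and Tnni2 differed by 0.50 ± 0.19 and 0.52 ± 0.20, and the light chain Mylpf by 0.39 ± 0.19. Slow and oxidative fibre genes had a median of 0.11 (-0.023 without replicate 2, -0.13 without WT replicate 1) and 0 at an unadjusted p under 0.05. Their WT libraries stood at medians of -0.48, 0.43 and 0.071 from the WT mean and the Bmal1hep-/- libraries at -0.31, 0.54 and 0.14, so replicate 1 was the lowest and replicate 2 the highest in both. Myl2, slow myosin light chain, stood at 75.3, 178 and 127 FPKM in WT and 100.4, 336 and 138 FPKM in Bmal1hep-/- muscle (0.48 ± 0.43), and Mb, myoglobin, at 2261, 1345 and 1231 FPKM in WT and 1713, 2704 and 1372 FPKM in Bmal1hep-/- muscle (0.25 ± 0.30). Excitation genes had a median of -0.0080, with the calcium pump inhibitor Mrln at 193, 185 and 187 FPKM in WT and 284, 354 and 215 FPKM in Bmal1hep-/- muscle (0.56 ± 0.21). Genes of the neuromuscular junction had a median of -0.0028 (0.060 without replicate 2), with its organiser Musk at -0.51 ± 0.29 and -0.21 without replicate 2. In the myostatin and myokine list, median 0.018 (0.12 without replicate 2), the myokine Il15 stood at 5.8, 5.30 and 6.19 FPKM in WT and 3.84, 4.57 and 4.87 FPKM in Bmal1hep-/- muscle, all lower (-0.32 ± 0.15, -0.34 without replicate 2). Satellite cell genes had a median of -0.036 (0.062 without replicate 2), with the proteoglycan Sdc4 higher in all 3 libraries (0.36 ± 0.14, 0.33 without replicate 2) and the cadherin Cdh15 at 0.33 ± 0.16.

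Markers of liver cells, present at low level, were mostly lower in the Bmal1hep-/- libraries, though none passed the test. Of 10 hepatocyte markers, 7 had all Bmal1hep-/- libraries below all WT libraries (Alb, Apoa1, Apoa2, Ttr, Serpina1a, Fgb and Ahsg). All 7 had their highest value of the 36 libraries in WT ZT8 replicate 3, so they may not vary independently. Of the 10, 5 (Alb, Apoa1, Apoa2, Hp and Cyp2e1) reached the filter and were tested. Among these 5, 3 were lower without overlap, against 4.41% of all tested genes. Apoa1 reached the filter through WT ZT8 replicate 3 alone, at 38.9 FPKM, since its mean over the other libraries was 0.540 FPKM. That library also held the highest Apoa2, 119 FPKM, whose mean without it was 1.90 FPKM. Values of the others are given as chosen after they were seen. Alb, albumin, stood at 3.50, 3.82 and 3.72 FPKM in WT and 0.185, 0.330 and 1.44 FPKM in Bmal1hep-/- muscle. Every WT library was above 3 FPKM and every Bmal1hep-/- library under 2 FPKM, with a difference of -1.58 ± 0.65 and an unadjusted p of 0.0227 (adjusted p = 0.686 in limma). Ttr, transthyretin, stood at 1.11, 1.12 and 1.25 FPKM in WT and 0, 0.0531 and 0.0662 FPKM in Bmal1hep-/- muscle, and Apoa2 at 2.80, 9.75 and 4.30 FPKM in WT and 0.742, 1.82 and 0.528 FPKM in Bmal1hep-/- muscle. Apoa2 differed by -1.62 ± 0.90 and Apoa1 by -0.94 ± 0.67. The median of the 5 tested was -0.94, or -0.94 without replicate 2. At the other times its median ran from -2.09 at ZT8 to 0.95 at ZT4, and Alb ranged over the 36 libraries from 0 to 30.2 FPKM, the latter in WT ZT8 replicate 3. The 10 markers summed to 72.8, 31.8 and 28.3 FPKM in WT and 12.3, 14.5 and 48.3 FPKM in Bmal1hep-/- muscle, so the sums overlapped. Hp and Cyp2e1, which fat also expresses, were highest in WT replicate 1 and Bmal1hep-/- replicate 3, the libraries highest in the adipocyte gene Adipoq, and their groups overlapped. Whether the liver transcripts were made in muscle or came from other tissue was not tested. In bulk muscle, fewer cells of a type and less RNA per cell cannot be told apart.

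In none of the other 12 marker lists, from fat to nerve, did any gene separate the genotypes without overlap. Over all tested genes 8.80% had groups that did not overlap, and a number of these markers lay under the filter. Schwann cell markers had 1 of 8 above 0 and a median of -0.61 (-0.54 without replicate 2), and the median was 0.32 without WT replicate 1, so its sign turned. The sum of the markers was 656, 61.4 and 89.5 FPKM in WT and 67.1, 88.6 and 137 FPKM in Bmal1hep-/- muscle. The high library was WT replicate 1 alone, as in the myelin gene Mbp at 163, 13.2 and 15.9 FPKM in WT and 15.7, 14.3 and 26.6 FPKM in Bmal1hep-/- muscle. Prx and Pmp22, also of myelin, were highest in the same library. Adipocyte markers had a median of 0.50 (0.45 without replicate 2), and adiponectin, Adipoq, stood at 12.4, 3.04 and 3.59 FPKM in WT and 5.29, 5.22 and 22.5 FPKM in Bmal1hep-/- muscle, highest in Bmal1hep-/- replicate 3 and next in WT replicate 1 (0.63 ± 0.83). Without replicate 3 the list's median was -0.0084. Collagen and matrix genes had a median of -0.099, with 6 of 22 above 0, and 0.19 without replicate 2, with 21 of 22 above 0. Tendon markers were lowest of the 36 libraries in Bmal1hep-/- replicate 2, as in tenomodulin, Tnmd, at 6.34, 4.11 and 9.60 FPKM in WT and 5.03, 0.401 and 4.92 FPKM in Bmal1hep-/- muscle. Macrophage and fibroblast markers were low there as well, with medians of -0.60 and -0.43 from the WT mean, while muscle fibre markers summed to 125929 FPKM, the highest of the 36. All FPKM of that library summed to 830136, also the highest of the 36, and the marker sum was not scaled to that total. Endothelial and smooth muscle markers had medians of 0.074 (0.063 without replicate 2) and 0.060 (0.11 without replicate 2), with the junction gene Cldn5 at 0.56 ± 0.22 and Tagln at 0.58 ± 0.22. Lymphocyte markers summed to 0.716 to 1.32 FPKM in the 6 libraries, and Nkg7 was listed at 0 in all of them.

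Differences of at least 1 on the log2 scale numbered 29, of which 20 were higher and 9, Myh4 among them, were lower, and 14 of the 29 intervals excluded 0. The genes named from this set were chosen after their values were seen. Amd1 and its near-identical copy Amd2, which encode the enzyme that commits S-adenosylmethionine to polyamines, had large differences of opposite sign. Amd1 stood at 439.7, 1361 and 1367 FPKM in WT and 154, 249 and 133 FPKM in Bmal1hep-/- muscle and Amd2 at 507, 1.52 and 64.3 FPKM in WT and 904, 748 and 1019 FPKM in Bmal1hep-/- muscle. Their sum was 947, 1362 and 1431 FPKM in WT and 1058, 997 and 1152 FPKM in Bmal1hep-/- muscle, which overlapped. How reads shared between the copies were divided among them was not tested. Hba-a2, an alpha globin copy, stood at 26.7, 0.00626 and 59.3 FPKM in WT and 81.9, 109 and 32.5 FPKM in Bmal1hep-/- muscle, and together with Hba-a1 at 122, 87.9 and 129 FPKM in WT and 143, 264 and 131 FPKM in Bmal1hep-/- muscle. Ndufa3, a complex I subunit, and Rpl34 were past 1 without overlap, Ndufa3 at 721, 907 and 923 FPKM in WT and 1737, 2847 and 994 FPKM in Bmal1hep-/- muscle (1.01 ± 0.39, 0.64 without replicate 2) and Rpl34 at 133, 168 and 187 FPKM in WT and 350.2, 524 and 274 FPKM in Bmal1hep-/- muscle (1.19 ± 0.45, 0.94). Further liver-secreted products past 1 and lower in all 3 libraries were Mup3 (-1.64 ± 0.65), Mup20 (-1.78 ± 0.79) and Apoc3 (-1.22 ± 0.75). The first 2 are from a family of near-identical copies, and the interval of Apoc3 held 0. In the same order they differed by -2.15, -2.34 and -1.42 at ZT8 and by 0.48, 0.51 and 0.63 at ZT4. Their WT means were highest at ZT8, the time of WT ZT8 replicate 3, the library highest in albumin and related markers. Whether they reach the filter without that library was not tested.

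Finally the ZT12 difference was set against the mean difference at the other 5 times, to ask whether any of it belongs to that hour. limma called 0 of 10837 genes (0.0%, smallest adjusted p = 0.293), and 930 (8.58%) had an unadjusted p under 0.05. The genes of smallest p in that test, predicted genes aside, were Rita1 (1.14 ± 0.23), Metap1d (0.55 ± 0.13), Tmem141 (0.70 ± 0.17), BC025920 (0.60 ± 0.15), Dcbld1 (-0.54 ± 0.14) and Ogg1 (0.69 ± 0.18). Metap1d, the mitochondrial enzyme that trims the first methionine, stood at 24.6, 24.9 and 23.6 FPKM in WT and 30.7, 38.9 and 29.2 FPKM in Bmal1hep-/- muscle, all higher, and its mean difference at the other times was -0.15. Rita1 differed at the other times by a mean of -0.28, and Dcbld1 by 0.11.

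The respiratory and ribosomal lists were higher in Bmal1hep-/- muscle at ZT12 and lower at ZT20. The other times had 0 genes past the threshold each, and at an unadjusted p under 0.05 they had 238 (2.2%) at ZT0, 982 (9.06%) at ZT4, 334 (3.08%) at ZT8, 265 (2.45%) at ZT16 and 1364 (12.6%) at ZT20. The medians of complex I were 0.017, 0.015 and -0.064 at ZT0, ZT4 and ZT8, 0.33 at ZT12, and -0.017 and -0.31 at ZT16 and ZT20. Those of the cytosolic ribosome were 0.078, 0.13, -0.10, 0.35, 0.033 and -0.20 in the same order. Both genotypes stood at an end of their own daily range at ZT12 for many of these genes. For all 16 complex IV genes ZT12 was the lowest of the 6 WT times, as it was for 23 of 37 complex I genes, for 53 of 82 genes of the cytosolic ribosome and for 22.7% of all tested genes. ZT12 was the highest Bmal1hep-/- time for 22 of 37 complex I genes and 49 of 82 ribosomal genes, against 20.6% of all. That order is of mean FPKM with Bmal1hep-/- ZT12 replicate 2 included, and it was not taken without that library. Without Bmal1hep-/- replicate 2 the ZT12 medians were 0.034 for complex I and 0.14 for the cytosolic ribosome. For each library, the deviation of a level from the gene's mean over the 36 libraries was set against transcript length. At ZT12 in WT the Spearman correlations across genes were -0.015, 0.305 and 0.302 in replicates 1, 2 and 3. At ZT20 they were 0.182, 0.278 and -0.427 in WT and -0.026, 0.384 and 0.350 in Bmal1hep-/- muscle. The part of this length balance in the order of times was not tested.

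**Figure D5:**
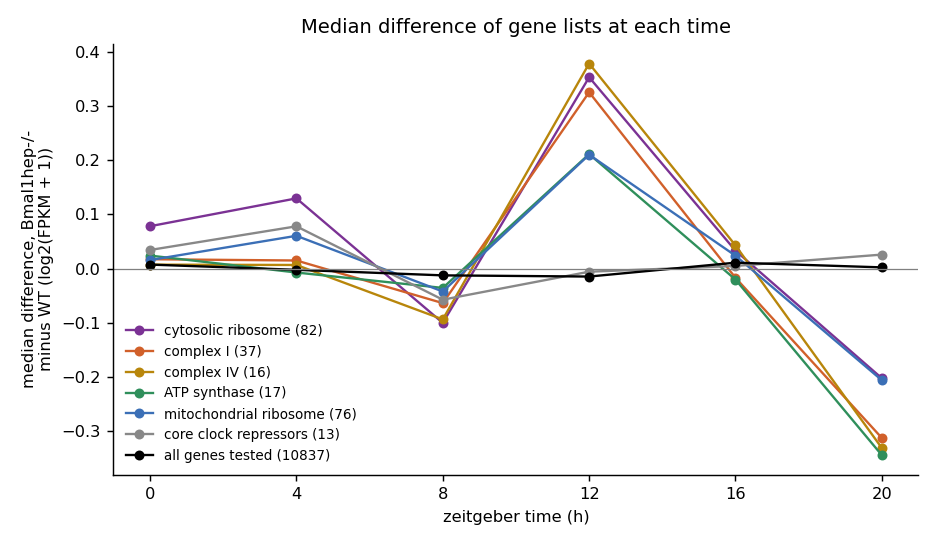
Median log2 difference, Bmal1hep-/- minus WT (vertical axis), of 6 gene lists and all tested genes at each zeitgeber time in h (horizontal axis), with the number of genes in parentheses. The respiratory and ribosomal lists peak at ZT12, at 0.21 to 0.38, and reach -0.34 to -0.20 at ZT20, while the clock repressors and all genes stay near 0.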

How the data were processed

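The authors deposited FPKM per gene symbol for all 36 libraries in 1 table. Per the labels' protocols, poly-T bead mRNA was copied from random hexamers. The submitters' processing notes name FastQC 0.11.8, STAR, mm10 and GRCm39, and the FPKM tool, annotation and scaling are not given in the sources used. From these values log2(FPKM + 1) was computed where the mean reached 1 FPKM. limma 3.58.1 in R 4.3.3 fitted 12 group means (24 residual degrees of freedom, eBayes with trend and robust, Benjamini-Hochberg over all genes, threshold 0.05), after being tested on simulated data. Read totals are unknown. Transcript length is the longest GENCODE M21 transcript per symbol. Named are the 20 genes of smallest p, the 6 of smallest p in the test against other times, the clock genes and up to 4 members of smallest p per list. Predicted genes are not named, and a few list members are not reported here. Members and lists were chosen with earlier results of these data known. Same-numbered libraries did not pair, so no block was used.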

Additional observations from a re-analysis of the deposited data

How the results depend on the processing

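The count of 0 genes at an adjusted p under 0.05 held with a pseudocount of 0.1 FPKM, no filter on level, a mean of at least 5 FPKM, quantile normalization, rescaling by median of ratios, the length trend removed, eBayes without trend and robust, the replicate block, the 6 ZT12 libraries alone and each library left out. Array weights by REML, which did not converge, gave 2068 genes (1224 higher, 844 lower), 3638 at an unadjusted p under 0.05 and 2048 departing from the other times. Gene-by-gene weights, chosen after seeing the data, gave 28 (23 higher, 5 lower), 1905 and 238. By REML, Bmal1hep-/- ZT12 replicates 1, 2 and 3 had weights of 9.55, 0.181 and 0.351, so replicate 1 carried most of that group. Gene by gene the weights were 2.75, 0.247 and 0.464. The cause was not tested.

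The 786 genes at an unadjusted p under 0.05 became 339 without the 6 libraries that stood apart in the series and 370 with the 6 ZT12 libraries alone. They became 289 without both ZT12 libraries that stood apart (chosen after seeing the data) and 260 to 2025 with 1 library left out. The replicate block gave 758 in all libraries and 376 in the 6 at ZT12, with 0 past the threshold in both. Same-numbered libraries had correlations of deviations of -0.089, -0.033 and 0.081, so their numbers were not taken to pair them. Of 247 named genes, 21 differed in sign without Bmal1hep-/- replicate 2, 11 under quantile normalization and 7 with the length trend removed. The spread between 3 libraries per group sets the interval, a median of 1.23-fold of FPKM + 1 to either side. Read totals are unknown, and depth as a limit was not tested.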

Other observations

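Nnt, the mitochondrial enzyme that makes NADPH from NADH and is deleted in part in some C57BL/6J stocks, fell into separate ranges over the 36 libraries. It stood at 7.99 to 15.2 FPKM in 22 libraries and at 24.3 to 59.8 FPKM in 14, of which 8 were WT and 6 Bmal1hep-/-. At ZT12 it was 13.3, 40.6 and 11.3 FPKM in WT and 10.9, 11.1 and 12.2 FPKM in Bmal1hep-/- muscle, so WT replicate 2 was the library of the higher range. Rn45s, the ribosomal RNA precursor, which poly-T capture should leave behind, stood at 1415, 1415 and 3186 FPKM in WT and 4350.1, 5553 and 2909 FPKM in Bmal1hep-/- muscle. Lars2, the mitochondrial leucyl-tRNA synthetase gene, stood at 70.8, 121 and 245 FPKM in WT and 239, 328 and 217 FPKM in Bmal1hep-/- muscle, and its lowest libraries were the same as those of Rn45s. These genes were named after their values were seen.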
